A study of Mus musculus with 6 samples.

Results

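The genes described here encode integrins, laminins and the proteins that hold epithelial cells to their basement membrane. They were chosen by symbol: the integrin α chains Itga with a number or the letters e, l, v or x, the integrin chains Itgb1 to Itgb8, the laminin chains Lama, Lamb and Lamc 1 to 5, and 16 named genes (Hspg2, Agrn, Nid1, Dag1, Plec, Fermt1, Fermt2, Ptk2, Tln1, Vcl, Pxn, Ilk, Mmp14, Mmp15, Timp2 and Timp3). The deposited table of 52249 mouse genes held 50 such genes, and 32 of them had enough counts to be tested. RNA came from organoids of mouse intestine, epithelial cultures that grow as closed structures from crypt cells, and was sequenced from the 3′ end of the transcript. All 6 libraries were labelled Apc knockout. In 3 of them, called knockout libraries here, the genotype label was Apc-knockout alone, and in the other 3, called OE-labelled libraries, the label added IGF2BP3 overexpression. The labels give no age, strain, knockout allele, driver of the overexpression, clone number or growth matrix, and cultures with intact Apc were not analysed here.

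Laminins are trimers of an α, a β and a γ chain and form the sheet of the basement membrane to which epithelial cells attach. Integrins are receptors of an α and a β chain that bind laminin, collagen or other matrix outside the cell and the cytoskeleton inside it. In the gut, trimers with Lama3 and Lamb3 and the integrin of Itga6 and Itgb4 belong to hemidesmosome-type anchors, whereas trimers with Lamb1 or Lamb2 and Lamc1 make up much of the remaining laminin, and Itgb1 pairs with many α chains, among them Itga1, Itga2, Itga3 and Itga6.

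Total counts ran from 2180087 to 2519886 per library, and the 50 genes took between 0.647% and 0.736% of them. Levels are given as CPM, counts scaled to a common effective library size by TMM, on which 3 counts lie between 1.18 and 1.41 CPM. Igf2bp3 itself had 1 count in replicate 1 of each group and 0 in all other libraries, so the counts give no check of the overexpression label. Apc had 182, 174 and 164 counts in knockout and 158, 151 and 148 in OE-labelled libraries (log2 fold change -0.37, edgeR adjusted p = 0.0323); the labels do not give the deleted part, so 3′ counts do not check the knockout label either. The library names put the groups in separate series, so a difference between series and a difference between genotypes cannot be told apart in anything below. The labels do not say whether the 3 libraries of a group came from separate cultures, so the p-values measure the spread between these libraries, which may be technical.

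Of the 14 epithelial marker genes, 12 were tested and 2 (Cdx1 and Krt20) were at 0 counts in every library. Their summed level was 4296 to 4553 CPM in knockout and 5656 to 6322 CPM in OE-labelled libraries. Of the 12, 5 were called higher (Gpa33, Krt8, Krt18, Krt19 and Vil1) and 1 lower (Cldn7), where 29.2% of all tested genes were called. The higher sum came mostly from 3 keratins, with knockout and OE-labelled means of 497.7 and 829.2 CPM (Krt8), 1179 and 2229 CPM (Krt18), and 489.3 and 772.1 CPM (Krt19). Epcam (432 and 455 CPM) and Cdh1 (1398 and 1282 CPM) were not called. Among 17 markers of fibroblasts and other mesenchyme, which are major sources of laminin in tissue, 16 had at most 3 counts in any library, and Col1a2, Col3a1, Dcn, Lum, Pdgfrb, Postn and Thy1 were at 0 throughout. Their summed level, nearly all from Fn1, was 168.7 to 197.7 CPM in knockout and 136.5 to 225.3 CPM in OE-labelled libraries. Of 9 endothelial markers, 8 had at most 3 counts in any library, and Cdh5, Cldn5, Plvap and Tek were at 0. Their summed level, nearly all from Esam, was 9.678 to 12.9 CPM in knockout and 13.37 to 13.77 CPM in OE-labelled libraries. Esam itself was not called. Of 10 leukocyte markers, 7 had at most 3 counts in any library, and of these Cd3e, Cd79a, Lyz2 and Tyrobp were at 0. The summed level was 42.22 to 51.62 CPM in knockout and 61.3 to 76.57 CPM in OE-labelled libraries. It came nearly all from Csf1r, which was called higher, and Cd68, which was not called.

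Of the adhesion genes, 10 passed the threshold, an edgeR quasi-likelihood adjusted p below 0.05 over all 10687 genes tested. Lamb1, Lamc1, Itga2, Itga6 and Itgb1 were lower in OE-labelled libraries, and Lamb3, Itgb5, Agrn, Pxn and Mmp15 were higher. The 10 called genes are 31.2% of the 32 tested, where 29.2% of all tested genes were called, so the share of called genes does not set these genes apart. By direction, 5 of 32 were higher against 16.5% of all tested genes, and 5 of 32 were lower against 12.7%. Knockout and OE-labelled CPM values formed separate ranges for 15 of the 32 genes and for 45.7% of all tested genes. The median log2 fold change (OE-labelled minus knockout, as everywhere below) was -0.008 over the 32 genes and 0.041 over all tested genes. In bulk libraries, fewer cells of a type and less RNA per cell cannot be told apart.

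**Figure D1:**
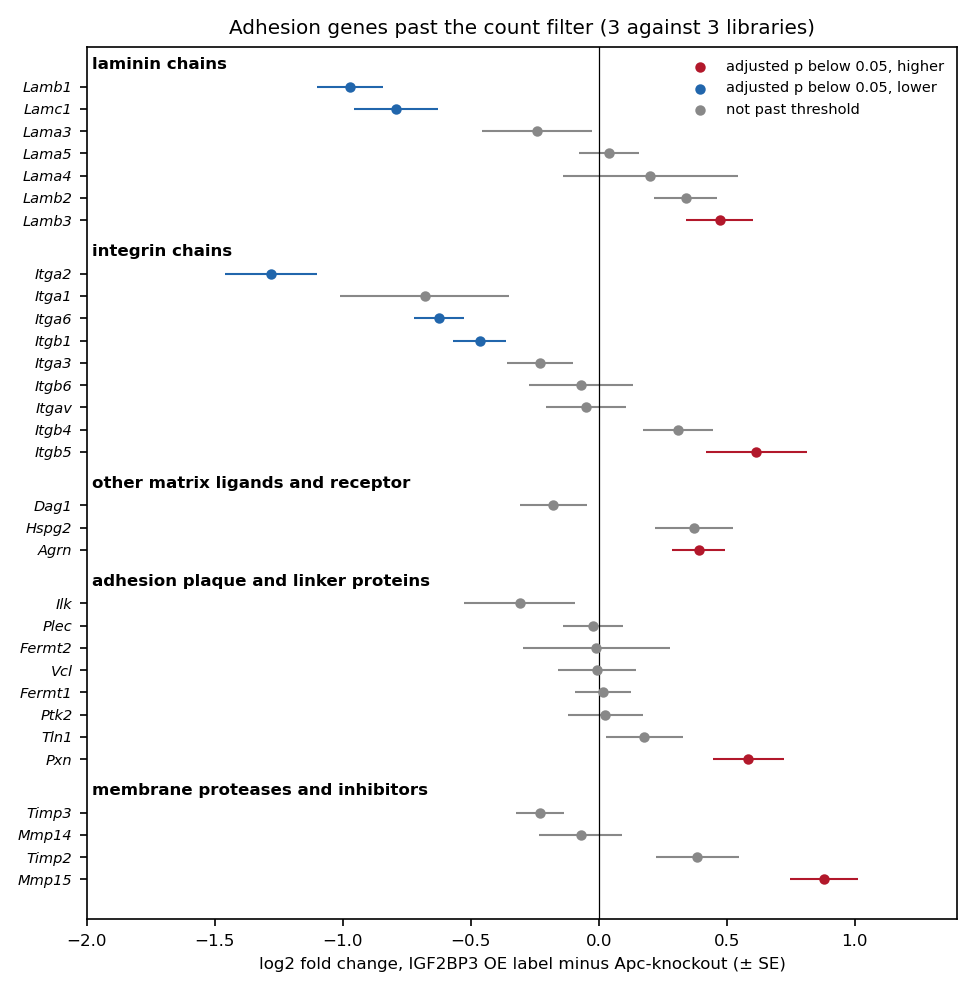
Log2 fold change of 31 of the 32 tested adhesion genes, OE-labelled minus knockout, with bars of 1 SE, grouped by role (3 libraries per group). The laminin and integrin chains spread to both sides of 0, from -1.28 for Itga2 to 0.62 for Itgb5, whereas all adhesion plaque genes but Pxn lie between -0.31 and 0.18.

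The called laminin chains did not share a direction. Of 11 chains, 8 were tested: 2 fell, 1 rose and 5 did not pass. The called share was 37.5%, where 29.2% of all tested genes were called, and 8 genes are too few to set the laminins apart. Lamb1 (chr12:31265234-31329644, plus strand, GRCm38), a β chain that assembles with Lamc1, had 83.42, 78.35 and 77.86 CPM in the knockout libraries and 42.94, 36.96 and 42.28 CPM in the OE-labelled libraries. Every OE-labelled library lay far below every knockout library, and the log2 fold change was -0.97 (SE 0.13, adjusted p = 0.000315 by edgeR). Lamc1 (chr1:153218922-153332786, minus strand), the γ chain that assembles with Lamb1 or Lamb2, had 149.8, 158.6 and 156.2 CPM against 64.01, 93.59 and 110.8 CPM. The groups did not overlap, OE-labelled replicate 1 was the lowest, and the log2 fold change was -0.79 (SE 0.16, adjusted p = 0.00365 by edgeR).

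Lamb3 (chr1:193207699-193343878, plus strand), the β chain of the hemidesmosomal laminin, had 65.9, 56.3 and 70.03 CPM in knockout and 89.13, 80.61 and 97.24 CPM in OE-labelled libraries. All 3 OE-labelled values lay above the knockout values, with a log2 fold change of 0.47 (SE 0.13, adjusted p = 0.0183 by edgeR). This call was lost without knockout replicate 1 (edgeR adjusted p = 0.0623), without knockout replicate 2 (edgeR adjusted p = 0.106) and with the DESeq2 test (DESeq2 adjusted p = 0.0683). Lama3, the α chain that assembles with Lamb3, had 33.64, 44.57 and 42.39 CPM against 25.93, 29.49 and 46.93 CPM, where OE-labelled replicate 3 was above all others and the log2 fold change was -0.24 (SE 0.22, adjusted p = 0.427 by edgeR); without that library it was -0.53 (edgeR adjusted p = 0.0395) and without OE-labelled replicate 1 it was -0.14 (edgeR adjusted p = 0.624).

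Lamb2, the alternative β partner of Lamc1, had 153, 164.2 and 148.4 CPM in knockout and 226.5, 193.9 and 169.1 CPM in OE-labelled libraries. The ranges did not overlap, yet the log2 fold change of 0.34 (SE 0.12) narrowly missed the threshold (edgeR adjusted p = 0.054). Without OE-labelled replicate 3 it was 0.44 and passed (edgeR adjusted p = 0.0081), and without OE-labelled replicate 1 it was 0.17 (edgeR adjusted p = 0.228). Lama5, the α chain of widespread epithelial laminins, had 273.8, 258 and 248.8 CPM against 247.9, 243.8 and 310.3 CPM, overlapping ranges with a log2 fold change of 0.04 (SE 0.12, adjusted p = 0.832 by edgeR). Lama4 was near the detection limit, at 4.147 to 5.53 CPM in knockout and 4.326 to 7.698 CPM in OE-labelled libraries. Lama1, Lama2 and Lamc3 had 0 counts in all 6 libraries, which allows up to 1.41 CPM.

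**Figure D2:**
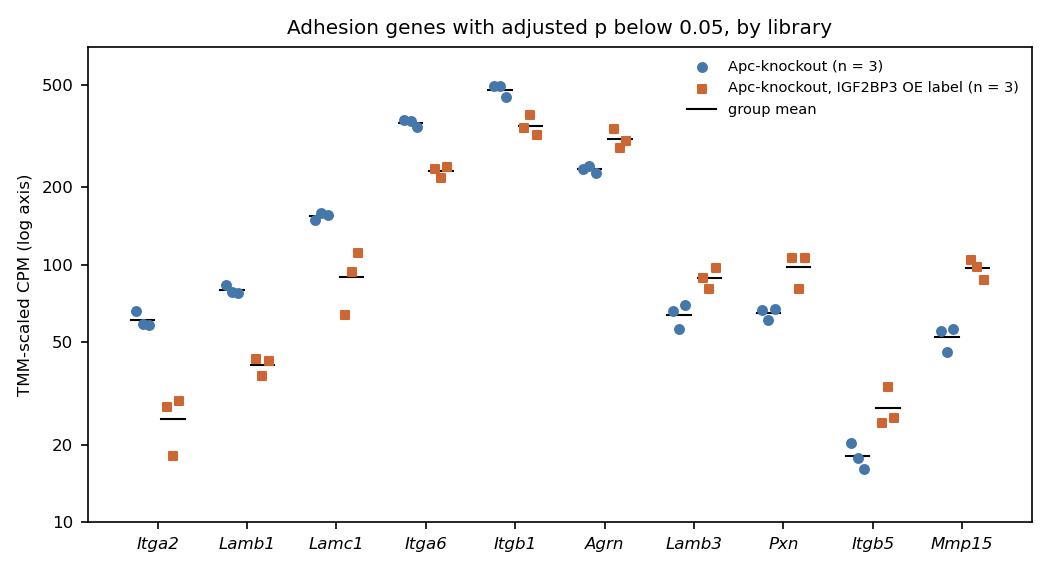
TMM-scaled CPM, on a log axis, of the 10 adhesion genes with an adjusted p below 0.05 in each knockout (circles) and OE-labelled (squares) library, with the mean of each group as a line. Lamb1 fell from a mean of 79.88 to 40.73 CPM and Mmp15 rose from 52.5 to 96.78 CPM, and none of the 10 genes has overlapping groups.

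Counts of 2 chains within a library give a ratio that does not depend on how libraries are scaled. These ratios were chosen after the values of the chains were seen, so they are descriptions without a test. Counting by 3′ tags can differ between transcripts, so the absolute value of a ratio is not informative. A change in a ratio is free of such differences only if they are equal in both groups, which was not tested. The Lamb3 to Lamb1 ratio was 0.79, 0.719 and 0.899 in knockout and 2.08, 2.18 and 2.3 in OE-labelled libraries, a mean of 0.803 ± 0.0911 against 2.19 ± 0.112 (SD, n = 3). The gap between the groups was wider than the whole range inside either. The Lamb2 to Lamb1 ratio was 1.83, 2.1 and 1.91 against 5.27, 5.24 and 4, again without overlap. On the log2 scale the Lamb3 to Lamb1 ratio changed by 1.44, and by 1.35 to 1.53 over 19 alternative fits. Many of these fits change only scaling, filter or depth and leave a ratio nearly unmoved by construction. The GC and exonic length offsets and the left-out libraries are the fits that could move it.

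**Figure D3:**
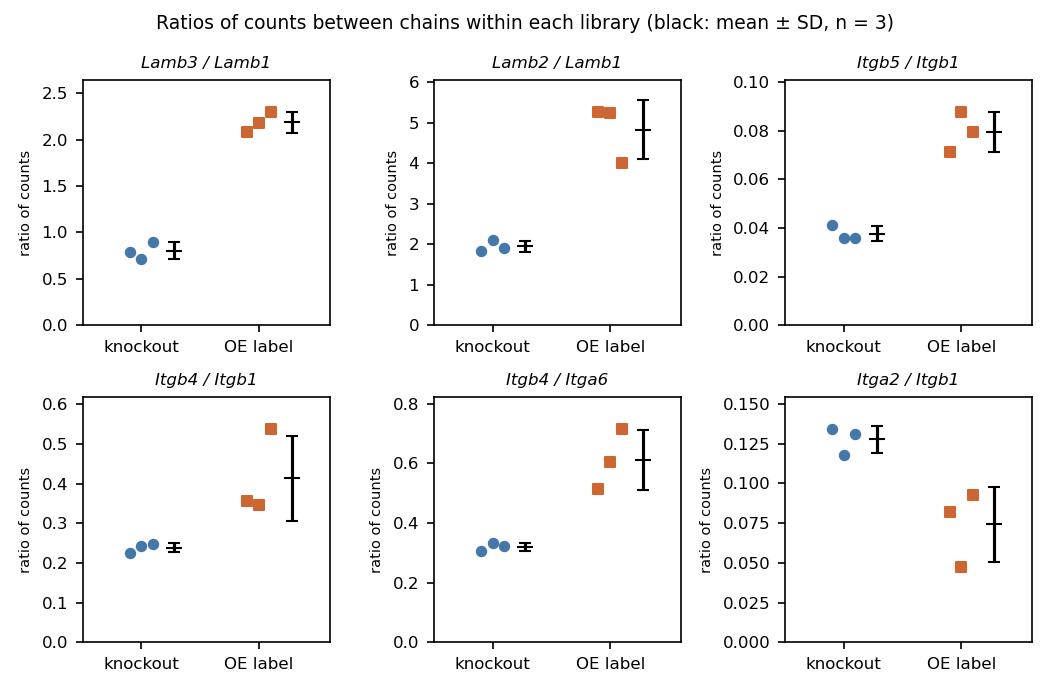
Ratio of counts between pairs of laminin or integrin chains in each library (linear axes from 0), with the mean ± SD of each group beside the points (n = 3). The laminin ratios (Lamb3 to Lamb1 and Lamb2 to Lamb1) lie above the knockout values in all OE-labelled libraries, as do Itgb5 to Itgb1, Itgb4 to Itgb1 and Itgb4 to Itga6, while Itga2 to Itgb1 lies below them.

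Start-site sequences are shown for Lamb1 and Lamb3, paralogous β chains that moved apart, and for Itga2 and Mmp15, the called genes with the lowest and the highest fold change. RefSeq entries of 250 bases before to 50 after the start (GRCm38.p6) were found for 34 of the 50 genes and for 7 of the 10 called ones; Lamb1 lies at chr12:31265043-31265342 (plus strand), Lamb3, the first of its 2 entries, at chr1:193301744-193302043 (plus), Itga2 at chr13:114932051-114932350 (minus) and Mmp15 at chr8:95352046-95352345 (plus). The Lamb3 window lies well inside the annotated gene, which begins at chr1:193207699. Each window is written 5′ to 3′ on the strand of the gene, and capitals mark the GC box GGGCGG on either strand.
Lamb1: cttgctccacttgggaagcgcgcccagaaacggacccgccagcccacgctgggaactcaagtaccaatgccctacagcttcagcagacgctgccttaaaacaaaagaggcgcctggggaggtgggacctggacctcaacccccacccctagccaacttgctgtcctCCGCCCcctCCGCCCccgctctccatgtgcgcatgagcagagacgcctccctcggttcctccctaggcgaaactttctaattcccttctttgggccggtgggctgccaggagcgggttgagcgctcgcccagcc
Lamb3: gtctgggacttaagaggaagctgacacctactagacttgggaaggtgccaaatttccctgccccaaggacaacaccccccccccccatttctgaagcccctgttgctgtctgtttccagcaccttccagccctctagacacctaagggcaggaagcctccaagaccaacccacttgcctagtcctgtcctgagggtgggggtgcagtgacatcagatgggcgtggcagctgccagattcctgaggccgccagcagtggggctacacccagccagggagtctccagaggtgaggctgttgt
Itga2: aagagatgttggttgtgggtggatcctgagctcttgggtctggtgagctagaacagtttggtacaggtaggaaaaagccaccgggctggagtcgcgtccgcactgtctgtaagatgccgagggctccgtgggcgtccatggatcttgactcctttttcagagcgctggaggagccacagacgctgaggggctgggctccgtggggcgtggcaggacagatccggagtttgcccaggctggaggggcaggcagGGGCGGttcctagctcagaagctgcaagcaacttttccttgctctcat
Mmp15: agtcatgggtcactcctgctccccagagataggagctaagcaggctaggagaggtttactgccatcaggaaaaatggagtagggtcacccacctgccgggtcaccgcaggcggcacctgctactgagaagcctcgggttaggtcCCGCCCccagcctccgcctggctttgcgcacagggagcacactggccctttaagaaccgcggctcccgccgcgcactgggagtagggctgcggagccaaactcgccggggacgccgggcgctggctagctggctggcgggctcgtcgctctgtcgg

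The GC box was found at 2 places in Lamb1 (bases 167 to 172 and 176 to 181 of the window), at 1 in Itga2 and at 1 in Mmp15, and at none in Lamb3. It occurs in 35.7% of all 32851 promoter windows of this length, and in 25 of the 40 windows found for the genes described here. A gene can have more than 1 of these 40 windows, which were taken whether or not the gene was tested. The MYC E-box CACGTG (7.15% of windows), the AP-1 site TGANTCA (7.81%), the TCF/LEF site ATCAAAG (3.73%) and the TEAD site GGAATG (14.7%) were searched. Of the 40 windows, 1 held the E-box, 3 the AP-1 site, 0 the TCF/LEF site and 5 the TEAD site. On both strands, none of these sites had a match in the 4 windows shown. Genes that fell and genes that rose therefore both held the GC box, and no library here measured binding of any factor.

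Of 23 integrin chains 9 were tested: 3 fell, 1 rose and 5 did not pass. The called share was 44.4%, against 29.2% of all tested genes, and 9 genes are too few to set the integrins apart. Itga2 (chr13:114833081-114932100, minus strand), the α chain of a collagen and laminin receptor, had 66.37, 58.64 and 58.51 CPM in knockout and 27.95, 18.09 and 29.59 CPM in OE-labelled libraries. Its highest OE-labelled value was far below its lowest knockout value, and the log2 fold change was -1.28 (SE 0.18, adjusted p = 0.00043 by edgeR), the lowest of the 32 genes. Itga6 (chr2:71745616-71858416, plus strand), a laminin-binding α chain, had 365, 361.7 and 342.3 CPM against 235.8, 217.8 and 239.7 CPM. The 2 groups lay well apart with little spread inside either, and the log2 fold change was -0.62 (SE 0.1, adjusted p = 0.000782 by edgeR).

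Itgb1 (chr8:128685654-128733200, plus strand), the common β chain and the integrin chain with the most counts, had 493.6, 495.4 and 446.4 CPM in knockout and 339.9, 380.6 and 318.8 CPM in OE-labelled libraries. The groups did not overlap and the log2 fold change was -0.47 (SE 0.1, adjusted p = 0.0059 by edgeR). Itgb5 (chr16:33829665-33949338, plus strand), which pairs with Itgav to bind vitronectin, had 20.28, 17.83 and 16.13 CPM against 24.31, 33.42 and 25.37 CPM. It was higher in every OE-labelled library, by 0.62 (SE 0.2, adjusted p = 0.0342 by edgeR), on at most 85 counts. This call was lost without any 1 of the knockout libraries (edgeR adjusted p = 0.0617, 0.104 and 0.133 without replicates 1, 2 and 3), without OE-labelled replicate 2 (0.159), with mitochondrial genes and the gene CT010467.1 left out of the fit (0.0506) and with the DESeq2 test (DESeq2 adjusted p = 0.146).

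Itgb4, the β partner of Itga6 in the hemidesmosome, had 111.5, 120.6 and 110.1 CPM in knockout and 121.1, 131.7 and 171.2 CPM in OE-labelled libraries. The ranges were next to each other without overlap, OE-labelled replicate 3 was highest, and the log2 fold change of 0.31 (SE 0.14) did not pass (edgeR adjusted p = 0.107). Without OE-labelled replicate 1 it was 0.35 and passed (edgeR adjusted p = 0.0302), and without OE-labelled replicate 3 it was 0.15 (edgeR adjusted p = 0.303). The Itgb4 to Itga6 count ratio was 0.306, 0.333 and 0.322 against 0.514, 0.605 and 0.714, higher in every OE-labelled library.

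The other α chains of Itgb1 did not pass. Itga3, a laminin receptor chain, had 170.1, 168 and 151.1 CPM against 146.7, 156.1 and 114.6 CPM (log2 fold change -0.23, SE 0.13, edgeR adjusted p = 0.204). Itga1, a collagen receptor chain, was low at 5.53 to 8.444 CPM in knockout and 3.241 to 5.505 CPM in OE-labelled libraries, and its log2 fold change of -0.68 had an SE of 0.33 (edgeR adjusted p = 0.14). Itgav, the α chain of the receptors for RGD-containing matrix, had 40.1, 42.69 and 39.62 CPM against 46.59, 34.6 and 37.2 CPM (-0.05, SE 0.16, edgeR adjusted p = 0.845). Itgb6, its epithelial partner in activating TGF-beta, had 40.1, 38.94 and 38.24 CPM against 25.93, 36.96 and 49.04 CPM. The OE-labelled values of Itgb6 lay on both sides of the narrow knockout range, with a log2 fold change of -0.07 (SE 0.2, adjusted p = 0.825 by edgeR).

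Of the 14 integrin chains that were not tested, 5 (Itga8, Itga9, Itga11, Itgae and Itgax) had 0 counts in all libraries, and 6 (Itga4, Itgal, Itgb2, Itgb3, Itgb7 and Itgb8) had at most 3 counts in any library. These include the leukocyte chains Itgal, Itgax and Itgb2. Itga7 had 11, 7 and 9 counts in knockout against 9, 8 and 7 in OE-labelled libraries, Itga5, the fibronectin receptor chain, had 1, 1 and 3 against 3, 9 and 1, and Itga10 had at most 4.

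Agrn (chr4:156165290-156197488, minus strand) encodes agrin, a heparan sulphate proteoglycan of basement membranes that binds laminin and dystroglycan. It had 235.5, 242.1 and 226.2 CPM in knockout and 335.9, 285.1 and 301.4 CPM in OE-labelled libraries, without overlap, and rose by 0.39 (SE 0.1, adjusted p = 0.0146 by edgeR). The call was lost when any 1 knockout library was left out (edgeR adjusted p = 0.0686, 0.0583 and 0.0864 without replicates 1, 2 and 3). Hspg2, which encodes perlecan, the related proteoglycan, had 29.5, 26.74 and 26.72 CPM against 36.87, 33.42 and 37.2 CPM. Its groups did not overlap either, but its log2 fold change of 0.37 (SE 0.15) did not pass (edgeR adjusted p = 0.0861). Dag1, the dystroglycan receptor that binds both and laminin, had 493.6, 508.5 and 481 CPM against 470.8, 497.8 and 342.5 CPM, where only OE-labelled replicate 3 was far below the rest (log2 fold change -0.18, SE 0.13, edgeR adjusted p = 0.325). Nid1, which links laminin to type IV collagen, had 0 counts in all libraries.

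Of the 8 genes on the cytoplasmic side of the adhesions, all tested, 1 rose and 7 did not pass, and the median log2 fold change was 0.006. The called share was 12.5%, against 29.2% of all tested genes, again on few genes. Pxn (chr5:115506676-115555987, plus strand), the paxillin scaffold of focal adhesions, had 66.83, 60.99 and 67.27 CPM in knockout and 106.1, 80.61 and 106.1 CPM in OE-labelled libraries. All OE-labelled values were above the knockout values and the log2 fold change was 0.58 (SE 0.14, adjusted p = 0.00763 by edgeR). Tln1, the talin that activates integrins, had 146.1, 160 and 161.7 CPM against 224, 144.7 and 160.2 CPM, high in OE-labelled replicate 1 alone (0.18, SE 0.15, edgeR adjusted p = 0.399). Fermt1, the epithelial kindlin that acts with talin, had 241, 224.2 and 232.2 CPM against 262.9, 226.9 and 216 CPM (0.02, SE 0.11, edgeR adjusted p = 0.924). Plec, the plectin that ties Itgb4 to keratin filaments, had 238.3, 233.6 and 239.1 CPM against 272.7, 218.6 and 208.9 CPM (-0.02, SE 0.12, edgeR adjusted p = 0.909).

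Ptk2, the focal adhesion kinase, had 67.75, 67.09 and 54.83 CPM against 55.1, 73.53 and 64.26 CPM, and Vcl, vinculin, had 89.87, 74.12 and 78.32 CPM against 63.2, 86.9 and 91.32 CPM. Both sets of ranges overlapped, with log2 fold changes of 0.03 (SE 0.15) for Ptk2 and -0.006 (SE 0.15) for Vcl. Ilk, the pseudokinase that couples β chains to parvin, had 25.35, 29.56 and 25.34 CPM against 28.36, 16.12 and 20.29 CPM (-0.31, SE 0.22, edgeR adjusted p = 0.302; -0.61 and 0.0269 without OE-labelled replicate 1, and -0.16 and 0.63 without OE-labelled replicate 2). Fermt2, the kindlin of broader distribution, had 17.51 to 22.05 CPM in knockout and 10.94 to 28.75 CPM in OE-labelled libraries (-0.009, SE 0.29).

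Mmp15 (chr8:95352268-95375080, plus strand), a membrane-anchored matrix metalloproteinase, had 55.3, 45.98 and 56.21 CPM in knockout and 104.5, 98.31 and 87.52 CPM in OE-labelled libraries. The groups lay far apart and the log2 fold change was 0.88 (SE 0.13, adjusted p = 0.000611 by edgeR), the highest of the 32 genes. Mmp14, its close relative and an activator of secreted proteases, had 158.1, 159.5 and 157.6 CPM against 107, 164.8 and 180.9 CPM. The knockout values of Mmp14 were almost identical and the OE-labelled values lay on both sides of them (log2 fold change -0.07, SE 0.16, edgeR adjusted p = 0.776).

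Timp2, an inhibitor that also takes part in protease activation by Mmp14, had 1111, 1086 and 1067 CPM against 1794, 1475 and 995.2 CPM. Replicates 1 and 2 of the OE-labelled group were high and replicate 3 was below the knockout range, so the log2 fold change of 0.39 (SE 0.16) did not pass (edgeR adjusted p = 0.0906); without replicate 3 it was 0.59 (edgeR adjusted p = 0.000436) and without replicate 1 it was 0.13 (edgeR adjusted p = 0.405). With no filter on low counts it passed (edgeR adjusted p = 0.0125). Timp3, the inhibitor that binds to the matrix and the member with the most counts, had 2032, 2066 and 2015 CPM against 1700, 1912 and 1600 CPM. Its groups did not overlap, but the log2 fold change of -0.23 (SE 0.09) did not pass (edgeR adjusted p = 0.0822). It passed without OE-labelled replicate 1 (-0.27, edgeR adjusted p = 0.0157) or replicate 2 (-0.33, edgeR adjusted p = 0.0346) and with mitochondrial genes and the gene CT010467.1 left out of the fit (-0.29, edgeR adjusted p = 0.0355), and was -0.17 without replicate 3 (edgeR adjusted p = 0.111).

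The direction of change moved with base composition. The 5 genes called higher had a transcript GC content of 55.6% to 59.6% and the 5 called lower 43.7% to 53%. The 22 that were not called spanned 42.8% to 61.3%. Over all tested genes the median was 49.7%, with 53.6% for all genes called higher and 45.7% for all called lower. A split in this direction is thus not particular to the adhesion genes. Across the 32 genes the Spearman correlation of log2 fold change with GC content was 0.58, and across all 10679 tested genes with a GC value it was 0.37; the genes of a fit share the same 6 libraries, and both are descriptions. GC content was taken from the whole longest transcript, so the GC content of the sequenced 3′ ends was not measured. When a GC offset was fitted in each library, Lamb1 (-1.09, edgeR adjusted p = 0.000179), Lamc1 (-0.92, 0.00262), Itga2 (-1.09, 0.00137), Itga6 (-0.6, 0.00142) and Mmp15 (0.64, 0.00363) remained called. Itgb1 (-0.3, edgeR adjusted p = 0.0583), Lamb3 (0.28, 0.154), Itgb5 (0.4, 0.161), Agrn (0.18, 0.21) and Pxn (0.36, 0.0718) kept their direction and no longer passed, while Itga3 became a call (-0.46, edgeR adjusted p = 0.0179). The Lamb3 to Lamb1 ratio still changed by 1.37 and the Lamb2 to Lamb1 ratio by 1.2 on the log2 scale, whereas Itgb4 to Itgb1 went from 0.77 to 0.37.

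**Figure D4:**
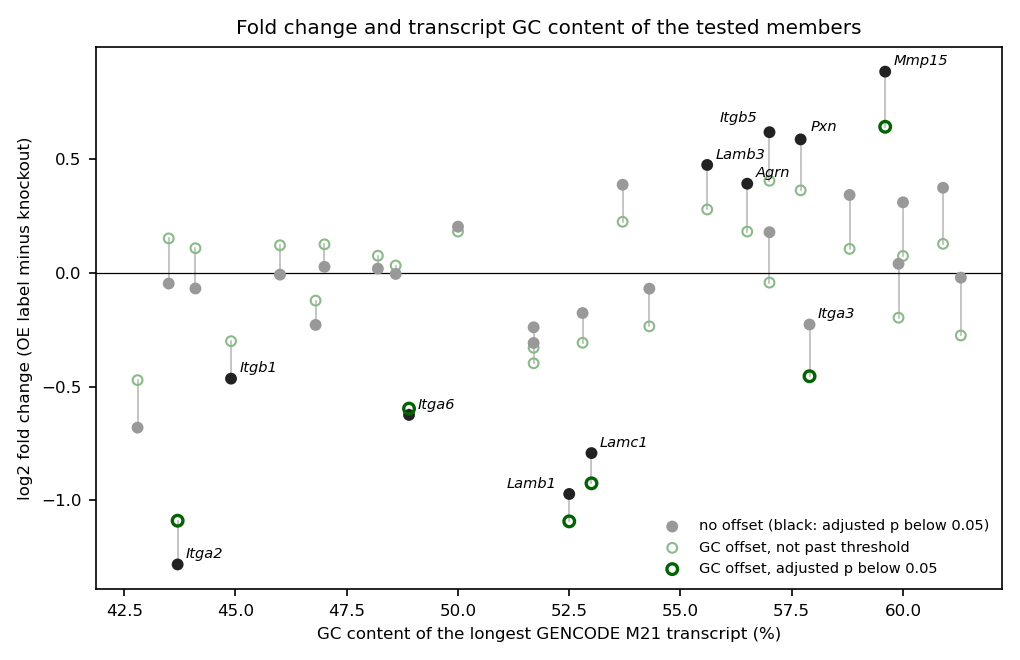
Log2 fold change of 31 of the 32 tested adhesion genes against the GC content of the longest annotated transcript, without (filled) and with (open) a GC offset per library, joined by a line for each gene. Genes that rose lie at 55.6% GC or above, and after the offset Mmp15 is the only one of them still past the threshold, while Lamb1 and Lamc1 move further below 0.

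Some called genes share their position with other annotated genes, and since the counting settings are not given in the sources used here, their counts can hold reads of a neighbour. Lamb3 overlaps 2 genes on its own strand and 4 on the opposite strand, Itga6 overlaps 2 and 2, Lamc1 1 and 1, and Pxn 1 on its own strand. Lamb1, Itga2, Itgb1, Itgb5, Agrn and Mmp15 overlap no annotated gene.

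The spread of these genes differed between the groups. Among knockout libraries the median SD of log2(CPM + 1) was 0.0785 over the 32 genes, and among OE-labelled libraries it was 0.23. Over all tested genes the medians were 0.145 and 0.22, so the OE-labelled spread of the 32 genes was near that of all genes. The 2 sets of genes were not matched for level. The SD was larger in the OE-labelled group for 29 of the 32 genes (90.6%), and for 67.5% of all tested genes. Within the OE-labelled group, replicates 1, 2 and 3 gave the highest value for 13, 7 and 12 of the genes and the lowest for 10, 12 and 10.

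Other genes of the same structures were read from 3 lists. In the basement membrane and hemidesmosome list, 14 of 23 genes were tested, 2 were higher and 3 lower, and the median log2 fold change was 0.034. Dst, whose epithelial form links hemidesmosomes to keratin beside plectin, had 81.1 ± 7.66 CPM in knockout and 28.85 ± 5.24 CPM with the OE label (SD, n = 3) and changed by -1.49 (SE 0.16, adjusted p = 9.1e-05 by edgeR), and it overlaps other genes on both strands. Cd151, the tetraspanin partner of laminin-binding integrins, rose from 168.4 ± 10.2 CPM to 294.8 ± 47.6 CPM (SD, n = 3), by 0.81 (SE 0.13, adjusted p = 0.000791 by edgeR). Sdc4, a syndecan co-receptor of focal adhesions, changed by -0.42 (SE 0.1, adjusted p = 0.00658 by edgeR). Col4a5, a type IV collagen chain, changed by -1.18 (SE 0.31, adjusted p = 0.0126 by edgeR), a call lost without knockout replicate 1 (0.0533) or knockout replicate 3 (0.0527), while Bcam, a laminin receptor, was the other gene called higher.

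In the focal adhesion list, 33 of 38 genes were tested, 7 were higher and 3 lower, with a median of 0.101. Parva, the parvin that binds Ilk, rose from 57.62 ± 2.85 CPM to 105.8 ± 4.9 CPM (SD, n = 3), by 0.88 (SE 0.12, adjusted p = 0.000337 by edgeR). Flna, the actin crosslinker filamin A, rose from 197.9 ± 4.66 CPM to 356.5 ± 47.5 CPM (SD, n = 3), by 0.85 (SE 0.11, adjusted p = 0.000343 by edgeR). Ptk2b, the kinase related to Ptk2, rose by 0.71 (SE 0.12) and Pdlim7, an actin-associated adaptor, by 0.85 (SE 0.15). The other called genes were Zyx, Csk and Itgb1bp1, which were higher, and Crk, Dock1 and Pdlim5, which were lower.

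In the list of other matrix proteases and inhibitors, 19 of 33 genes were tested, 4 were higher and 1 lower, with a median of 0.126. Bsg, a membrane glycoprotein known as an inducer of matrix metalloproteinases, rose from 1398 ± 59.6 CPM to 2361 ± 176 CPM (SD, n = 3), by 0.76 (SE 0.09, adjusted p = 0.000201 by edgeR). Ctsb, a lysosomal cysteine protease, rose by 0.69 (SE 0.1, adjusted p = 0.000626 by edgeR), Mmp7, matrilysin, by 1.14 (SE 0.16, adjusted p = 0.000517 by edgeR), and Adam8 was the other higher gene. Adam10, a membrane sheddase, had 165.2 ± 7.58 CPM in knockout and 97.58 ± 9.22 CPM with the OE label (SD, n = 3) and changed by -0.76 (SE 0.11, adjusted p = 0.00061 by edgeR). The secreted proteases Mmp2, Mmp3 and Mmp9 had 0 counts in every library. The called share of each list (5 of 14, 10 of 33 and 5 of 19) is near the 29.2% of all tested genes.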

How the data were processed

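The 6 libraries were QuantSeq 3′ forward libraries made from total RNA, per the labels' protocols. Values were deposited as estimated counts per gene without normalization; 2843 were fractional, and these were rounded before testing. The submitters' processing notes name STAR, HTSeq and the builds mm10 and GRCm38, without settings. Columns were matched to samples by the library name. Genes were kept by filterByExpr, scaled by TMM and tested in edgeR 4.0.16 (R 4.3.3; quasi-likelihood), without covariates, and p-values were adjusted by Benjamini-Hochberg over all genes kept. The SE is the estimate divided by the root of the F statistic. Position and GC content come from GENCODE M21 (GRCm38), in which 99.3% of identifiers were found. GC content is that of the longest transcript and exonic length that of all exons, so neither describes the sequenced 3′ end alone. The scripts were tested on simulated counts with equal spread in both groups and no GC trend, which the real libraries do not share.

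The members, lists and alternatives were chosen with earlier results of these data known. Named with per-library values were all called members and the main chains and linkers, called or not, and up to 4 called genes per list with the smallest p. Alternatives were DESeq2 1.42.0, limma-voom (limma 3.58.1), other scalings, filters and thresholds, equal depth, a replicate block, a GC offset (loess, span 0.5), each library left out, and, added after the data were seen, an exonic length offset. The values of 1 member are not reported here. Counting floors of 3 counts cover counting error only.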

Additional observations from a re-analysis of the deposited data

How the results depend on the processing

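Of 636 values of single adhesion genes under 20 alternatives, 595 kept their direction or stayed uncalled, 26 were no longer called, 15 became calls and 0 called values changed sign. Lamb1, Lamc1, Itga2, Itga6 and Mmp15 were called in all 20. The count of lower genes stayed between 5 and 7. The count of higher genes, 5 of 32, was 3 with the DESeq2 test, 1 with the GC offset, 1 with the replicate block and GC offset, and 2 at an adjusted p below 0.01; leaving out single libraries gave 2 to 7. Over all genes, 3118 calls became 1996 with the DESeq2 test and 1578 at an adjusted p below 0.01, and leaving out single libraries gave 1748 to 3532, the lowest without knockout replicate 3. A stricter threshold lowers these counts by construction, and the cause of the other shifts was not tested.

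The replicate block left the calls of all 32 genes as they were, with 3112 calls over all genes. Deviations of equally numbered libraries correlated at 0.098, 0.018 and 0.07, so the numbers were not taken as pairs. The share of higher genes among all calls was 56.6% (TMM), 49.9% (DESeq2 size factors) and 63.8% (library totals), at an all-gene median of 0.041, -0.003 and 0.089 on the log2 scale; the 10 calls were the same genes in all of these, and Lamb2 joined them with library totals. The median of the 32 genes moved between -0.067 and 0.15 and changed sign under library totals, the GC offset (alone or blocked), the length offset and without knockout replicate 1. With the exonic length offset Hspg2 (0.66), Itgb4 (0.42) and Lamb2 (0.41) became calls and Itgb5 (0.53) was lost. Depth limits genes of few counts: the SE was 0.34 for Lama4 and 0.33 for Itga1, against 0.09 for Timp3.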
